A study of Mus musculus with 8 samples.

Results

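The genes described here are 38 genes of the stroma and mural cells of the kidney, the cells that lie between the tubules and around the vessels. They were listed by name, by a rule that uses no measured value, but with earlier results of these data known. They comprise 4 transcription factors of the stroma, 8 secreted or surface signalling genes, 8 contractile and mural cell genes, 9 genes of elastic fibres and their crosslinking, and 9 other matrix and surface genes. The array named 20887 genes, of which 13981 passed the filter on dim probes and were tested, and 37 of the 38 were among them. The exception was Ntn4, a netrin of basement membranes, whose probe was above background on 2 of the 8 arrays. Of the 37, 32 were above background on all 8 arrays, so the labelled tissue did contain RNA of these genes. A filter of this kind can favour a gene that is high in 1 group.

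The samples were whole kidney pairs of C57BL/6 mouse embryos at embryonic day 16.5. Of these, 4 were wildtype (WT, genotype given as control) and 4 were conditional knockouts of Dot1, here read as Dot1l, the histone H3 lysine 79 methyltransferase, in the Six2-positive nephron progenitor cells (KO, genotype given as DOT1-null). Whether the controls carried the Cre driver or floxed alleles is not given in the sources used here. A whole kidney holds many cells in which a Six2-driven deletion does not occur. On every array the sample was labelled with Cy5 (red) against RNA of the WT1 kidneys in Cy3 (green), so each value is a log2 ratio to WT1 RNA and the WT1 array compares that RNA with itself.

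The renal stroma arises from progenitors that express Foxd1 and gives rise to interstitial fibroblasts, pericytes, vascular smooth muscle and mesangial cells. The nephron epithelium arises from a separate pool that expresses Six2. Stromal cells signal to the nephron progenitors and to the branching ureteric bud, and they lay down the matrix in which tubules and vessels grow. Mural cells wrap the vessels and contract through actin, myosin and their regulators. Elastic fibres are built from elastin on a scaffold of microfibrils, with fibulins as adaptors and lysyl oxidases as crosslinking enzymes.

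Promoter sequences were looked up for the genes whose values the text returns to most, each covering 300 bases around the start of transcription in the RefSeq annotation of GRCm38.p6. Of the 38 genes, 22 had an entry. Dkk3, Mfap5, Penk, Smoc2 and Thy1 had none. The 5 shown are those of Foxd1, Fbln1 and Fbln5, whose differences passed with the replicate block and in no other setting tried, and of Meis1 and its paralog Meis2, whose differences were 0.34 and -0.03. They lie at chr13:98353995-98354294 (plus strand, Foxd1), chr11:19018920-19019219 (minus, Meis1), chr2:116064570-116064869 (minus, Meis2), chr15:85205699-85205998 (plus, Fbln1) and chr12:101819070-101819369 (minus, Fbln5). Capitals mark the TATA box TATAAA and the GC box GGGCGG on either strand.
Foxd1: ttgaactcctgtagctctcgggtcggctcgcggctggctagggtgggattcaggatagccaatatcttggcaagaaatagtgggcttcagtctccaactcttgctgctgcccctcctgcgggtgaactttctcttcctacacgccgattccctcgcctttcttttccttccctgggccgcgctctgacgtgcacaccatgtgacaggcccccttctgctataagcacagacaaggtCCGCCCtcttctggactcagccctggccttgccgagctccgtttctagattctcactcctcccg
Meis1: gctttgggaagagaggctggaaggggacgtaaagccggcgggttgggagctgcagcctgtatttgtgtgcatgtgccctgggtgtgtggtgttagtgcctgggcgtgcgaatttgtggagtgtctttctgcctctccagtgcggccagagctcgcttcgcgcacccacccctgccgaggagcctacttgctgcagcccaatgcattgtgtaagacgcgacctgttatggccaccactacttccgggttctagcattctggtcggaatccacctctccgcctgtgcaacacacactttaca
Meis2: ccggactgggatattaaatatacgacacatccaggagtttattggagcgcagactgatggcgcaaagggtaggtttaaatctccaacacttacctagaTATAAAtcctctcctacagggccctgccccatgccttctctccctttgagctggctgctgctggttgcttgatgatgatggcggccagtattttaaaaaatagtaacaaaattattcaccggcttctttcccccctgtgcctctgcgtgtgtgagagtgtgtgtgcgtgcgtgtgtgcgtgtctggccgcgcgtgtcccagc
Fbln1: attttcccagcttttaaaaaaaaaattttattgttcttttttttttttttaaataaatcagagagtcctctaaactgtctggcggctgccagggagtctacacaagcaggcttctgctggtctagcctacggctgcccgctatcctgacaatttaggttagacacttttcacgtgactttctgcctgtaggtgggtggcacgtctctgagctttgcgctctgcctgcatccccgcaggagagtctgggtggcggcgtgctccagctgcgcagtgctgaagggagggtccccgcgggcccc
Fbln5: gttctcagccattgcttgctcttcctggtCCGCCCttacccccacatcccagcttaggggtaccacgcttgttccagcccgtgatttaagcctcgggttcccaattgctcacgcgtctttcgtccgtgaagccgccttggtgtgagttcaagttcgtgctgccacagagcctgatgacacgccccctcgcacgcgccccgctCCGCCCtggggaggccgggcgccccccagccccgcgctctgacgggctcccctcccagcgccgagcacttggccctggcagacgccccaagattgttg

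The Foxd1 window holds 1 GC box, the Meis2 window 1 TATA box and the Fbln5 window 2 GC boxes, while neither motif occurs in the Meis1 and Fbln1 windows shown. A second, overlapping Fbln1 window, from another start site, holds 2 GC boxes. Across the 26 windows of the 22 genes, GGGCGG occurred in 16 and TATAAA in 6, against 35.7% and 13.6% of all 32851 windows. The CArG box, the motif bound by serum response factor, was searched only as CC, 6 letters A or T, then GG. It occurred in none of the 26 and in 1.63% of all windows. Variants of the motif were not searched, and Tagln and Myh11 had no window. With so rare a motif, its absence from 26 windows does not set these genes apart. These counts describe letters in a window of 300 bases and say nothing about the binding of a factor.

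Some features of the arrays touched every result. Background was high on the WT1 and KO1 arrays, where red negative-control spots had medians of 1361 and 478.2 scanner units against 58 to 61 on the rest. Their green signals, from the same RNA on each array, followed the rest less closely. The median correlation of log2 green signals with the rest was 0.562 on WT1 and 0.904 on KO1. Among the rest it was 0.996 to 0.997. The Y-linked gene Ddx3y and the inactive X transcript Xist marked all KO embryos and WT2 as male and WT1, WT3 and WT4 as female. Each group filled its own row of the slide, so row and group cannot be told apart. The Dot1l probe differed by 0.03 ± 0.08 (SE, n = 4 per group; limma adjusted p = 0.924), and its place relative to the deleted part was not analysed here, so it checks nothing. Cited1, a coregulator of nephron progenitors, differed by -2.72 ± 0.10 (limma adjusted p = 2.80e-08). It alone passed among 6 nephron progenitor markers. Six2 differed by -0.21 and Meox1 by -0.37, while Eya1 (0.21), Crym (0.23) and Gdnf (0.08) were above 0.

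Among the stromal and mural genes, 5 rose in KO and 0 fell by limma at an adjusted p of 0.05. They were the matricellular gene Smoc2, the opioid peptide precursor Penk, the surface glycoprotein Thy1, the microfibril gene Mfap5 and the secreted Dickkopf family gene Dkk3, with increases between 1.35-fold and 1.59-fold. Of all genes tested, 1.61% were called higher and 0.544% lower, against 13.5% and 0 of the 37. At an unadjusted p under 0.05, 11 were higher and 1 was lower, a threshold that 11.1% of all genes passed upward and 3.38% downward. The groups did not overlap in 9 of the 37 (24.3%), against 9.26% of all genes. Differences were above 0 in 28 of the 37, or 75.7% against 59.3% of all genes, with a median of 0.16 on the log2 scale against 0.03. In whole kidneys, more cells of a type and more RNA per cell cannot be told apart.

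The count changed when single arrays were left out. It was 1 without WT4 or without KO4, 2 without WT1, WT2, KO2 or KO3 in turn, and 5 without WT3 or KO1. Calls over all genes, 301 with all arrays, moved as well. They were 187, 150, 283 and 129 without WT1, WT2, WT3 and WT4, and 345 without KO1. Without WT1 and KO1 together, Mfap5 (adjusted p = 0.0307) and Smoc2 (adjusted p = 0.0421) still passed in limma. With the replicate number as a block 8 rose, Foxd1 (adjusted p = 0.0388), Fbln1 (0.0417) and Fbln5 (0.0353) being added, while the share of all genes called higher went from 1.61% to 3.18%. With sex as a term 0 passed, and 0 passed with median centring in place of loess, with the scanner software's ratios or with the red channel alone. Calls over all genes fell as well, from 301 to 12, 0, 123 and 1 in these settings.

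**Figure D1:**
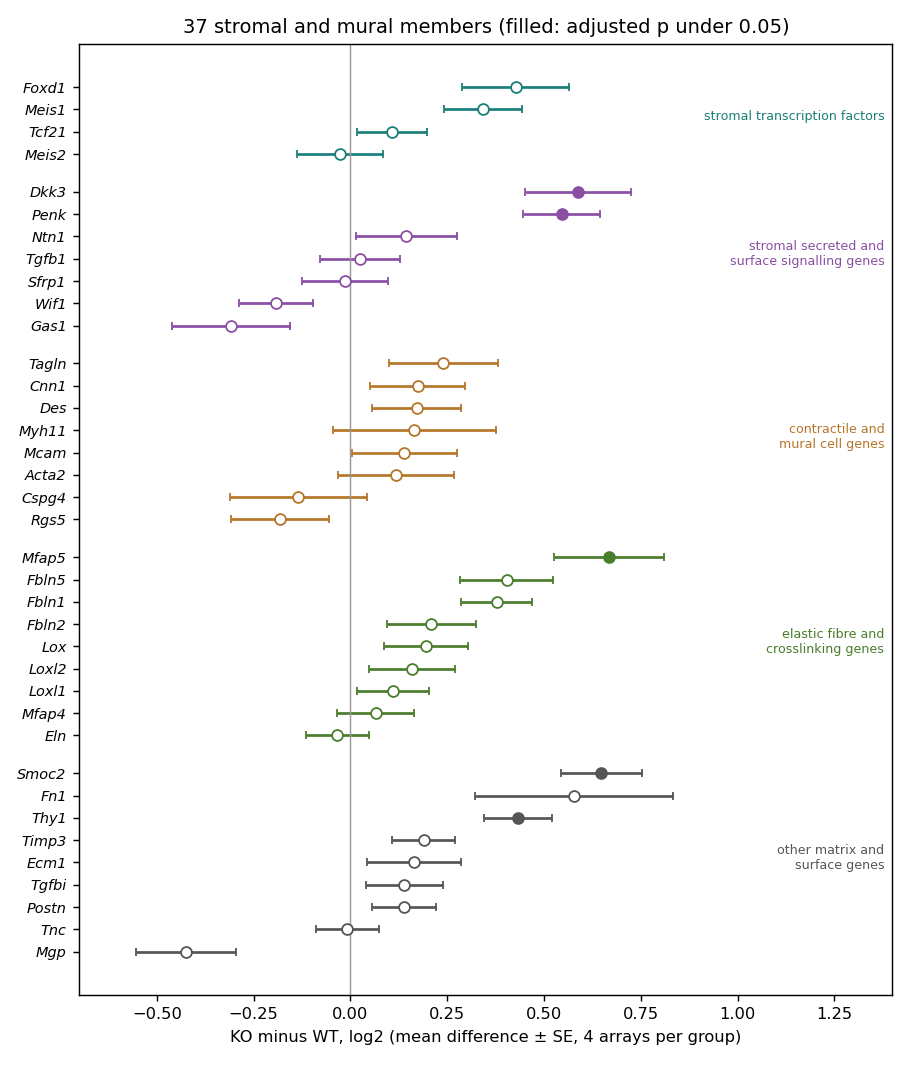
Mean difference between KO and WT (log2, x axis) for each of the 37 tested genes, grouped by role, with bars for the standard error over 4 arrays per group and filled points for an adjusted p under 0.05. The 5 filled points lie between 0.43 and 0.67, and the lowest point is Mgp at -0.42.

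Smoc2, whose product is a secreted calcium-binding protein of the matrix, had log2 ratios of -0.49, -0.42, -0.22 and -0.60 on the WT arrays, taken in the order of their replicate numbers here and throughout, against 0.18, 0.12, 0.42 and 0.14 on the KO arrays. All KO values lay above all WT values. WT1 compares the same RNA with itself, so its -0.49 reflects no contrast between samples, though it enters the WT mean. The difference was 0.65 ± 0.10 (SE, n = 4 per group; 1.57-fold, limma adjusted p = 0.00854), and it passed whichever array was left out (0.58 to 0.72). Red Smoc2 signals alone overlapped, at 5470, 6544 and 8115 units in WT2 to WT4 and 7802, 5854 and 10015 in KO2 to KO4. The green signal, from the same RNA on each array, was 3433 to 3546 units on WT2 to WT4 and 2514 to 2889 on KO2 to KO4. A lower green signal on KO2 to KO4 than on WT2 to WT4 was common, at 61.1% of all genes tested and 27 of the 37 (73.0%). The loess step corrects each array for its overall balance of the colours. How much of the Smoc2 difference came from the green channel was not tested.

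Penk encodes the precursor of the enkephalins and is known as a marker of medullary stroma. Its log2 ratios were -0.32, -0.21, 0.01 and -0.38 in WT against 0.27, 0.27, 0.44 and 0.31 in KO. The 4 KO values lay close together and above every WT value. The difference was 0.55 ± 0.10 (1.46-fold, limma adjusted p = 0.0164), and it missed the threshold without WT4 (adjusted p = 0.0534) and without KO4 (0.063).

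Thy1, a surface glycoprotein of fibroblasts that T cells and neurons carry too, had values of 0.00, 0.00, 0.24 and 0.02 in WT against 0.42, 0.47, 0.59 and 0.50 in KO. WT3 stood above the other WT arrays, yet below all KO arrays. The difference was 0.43 ± 0.09 (1.35-fold, limma adjusted p = 0.0251). Mfap5 encodes a glycoprotein of microfibrils, and its values were -0.18, 0.21, 0.25 and 0.15 in WT against 0.44, 0.68, 1.13 and 0.86 in KO. KO1 was the lowest KO array and WT1 the lowest WT array. The difference of Mfap5 was 0.67 ± 0.14 (1.59-fold, limma adjusted p = 0.0327).

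Dkk3 belongs by sequence to the Dickkopf family of secreted proteins. Its values were 0.00, -0.39, 0.17 and -0.23 in WT against 0.23, 0.51, 0.76 and 0.40 in KO. The groups were narrowly apart, with KO1 just above WT3. The difference was 0.59 ± 0.14 (1.5-fold, limma adjusted p = 0.0486). Thy1, Mfap5 and Dkk3 each missed the threshold without WT1, WT2, WT4, KO2, KO3 or KO4, with differences of 0.40 to 0.49, 0.55 to 0.78 and 0.49 to 0.68 over the arrays left out.

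**Figure D2:**
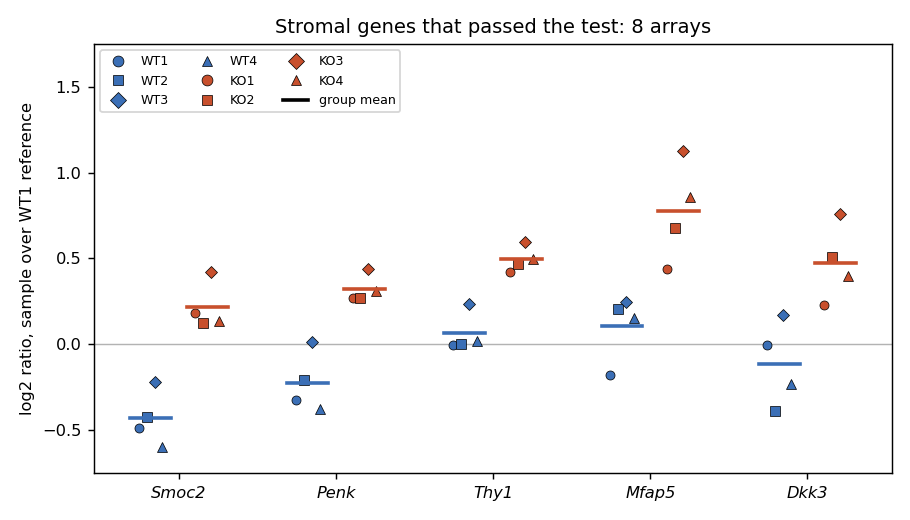
Log2 ratio of each sample over the WT1 reference (y axis) for Smoc2, Penk, Thy1, Mfap5 and Dkk3, with WT arrays in blue, KO arrays in red, a marker shape per replicate number and bars at the group means. In each gene the 4 KO points lie above the 4 WT points, narrowly so for Dkk3.

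Of the 4 transcription factors, 0 passed in limma, with a median difference of 0.22. At an unadjusted p under 0.05, 2 were higher and 0 lower, against 11.1% and 3.38% of all genes. Foxd1, the forkhead factor of stromal progenitors, had values of 0.08, -0.53, -0.13 and -0.14 in WT against 0.51, 0.14, 0.01 and 0.34 in KO. WT1 reached into the KO range, and the other WT arrays lay below all KO arrays. The difference was 0.43 ± 0.14 (limma adjusted p = 0.154; 0.0388 with the replicate block). The homeobox gene Meis1 had -0.24, 0.19, 0.12 and 0.03 in WT against 0.33, 0.33, 0.46 and 0.35 in KO, without overlap of the groups, a difference of 0.34 ± 0.10 (limma adjusted p = 0.114).

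Meis2 had -0.05, 0.25, 0.17 and 0.09 in WT against -0.16, 0.15, 0.33 and 0.02 in KO, a difference of -0.03 ± 0.11. These groups overlapped fully. The bHLH factor Tcf21, which stroma and podocytes share, had 0.14, -0.07, 0.07 and 0.17 in WT against 0.30, 0.16, 0.05 and 0.23 in KO. The groups overlapped, and the difference was 0.11 ± 0.09 (limma adjusted p = 0.661).

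Among the signalling genes 7 were measured, and Penk and Dkk3 were those that passed. The median difference of the 7 was 0.02. Ntn1, a guidance cue, differed by 0.14 ± 0.13. The secreted Wnt antagonists Sfrp1 and Wif1 differed by -0.01 ± 0.11 and -0.19 ± 0.10 (limma adjusted p = 0.978 and 0.386). The Hedgehog coreceptor gene Gas1 differed by -0.31 ± 0.15 (adjusted p = 0.386), with KO3 alone at -0.68 and the other KO arrays from -0.25 to -0.02. The growth factor gene Tgfb1 differed by 0.02 ± 0.10. In the red channel alone Wif1 and Gas1 turned to 0.43 and 0.21, where the median of all genes was 0.21.

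The 8 contractile and mural genes did not pass in limma in either direction, and 0 had an unadjusted p under 0.05. Acta2, the actin of smooth muscle, had -0.15, -0.13, -0.11 and -0.50 in WT against -0.44, -0.23, 0.34 and -0.09 in KO. KO3 was the highest of all arrays and KO1 was nearly as low as WT4. Its difference was 0.12 ± 0.15 (limma adjusted p = 0.791). Tagln, an actin-binding protein also called SM22, had -0.26, -0.34, -0.27 and -0.63 in WT against -0.46, -0.20, 0.25 and -0.14 in KO, the same order of KO arrays. The difference was 0.24 ± 0.14 (adjusted p = 0.475).

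The smooth muscle myosin gene Myh11 differed by 0.16 ± 0.21, the calponin gene Cnn1 by 0.17 ± 0.12 and desmin, Des, by 0.17 ± 0.12. Of the pericyte genes, the proteoglycan gene Cspg4 differed by -0.13 ± 0.18, the adhesion gene Mcam by 0.14 ± 0.14 and the G protein regulator Rgs5 by -0.18 ± 0.13. A second Mcam probe gave -0.22, so the direction of Mcam depended on the probe. KO3 was the highest KO array in 6 of these 8 genes, against 31.2% of all genes, and KO1 the lowest in 7, against 34.2%. Array means over the 8 genes were -0.10, 0.17, 0.03 and -0.14 in WT against -0.20, 0.12, 0.38 and 0.01 in KO. The median difference was 0.15. It was 0.01 without KO3, where Acta2 (-0.03) and Myh11 (-0.01) changed direction, and 0.25 without WT1 and KO1.

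**Figure D3:**
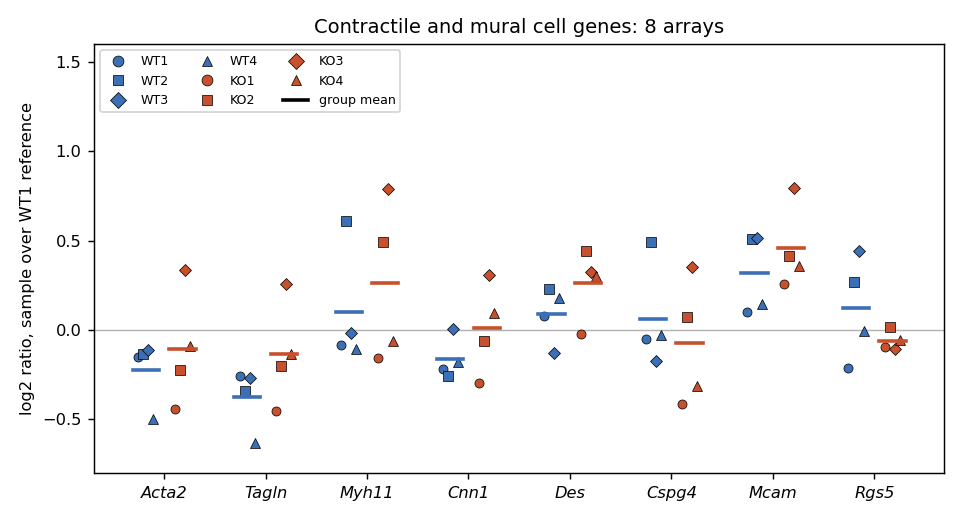
Log2 ratio over the WT1 reference (y axis) for the 8 contractile and mural cell genes on each array, WT in blue and KO in red, a marker shape per replicate number and bars at the group means. The groups overlap in all 8 genes, and KO3 is the highest KO array in 6 of them.

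A wider list of smooth muscle genes and of the serum response factor programme was read beside these. Of 23 measured of 26, 0 rose and 1 fell, at a median of 0.09. With an unadjusted p under 0.05, 3 were higher and 3 lower, against 11.1% and 3.38% of all genes. Kcnj8, the pore subunit of the potassium channel of pericytes, fell by 0.35 ± 0.08 (limma adjusted p = 0.0439), but missed the threshold whichever array was left out. The Kcnj8 difference was 0.03 in the red channel alone, where the median of all genes was positive. The partner subunit of Kcnj8, Abcc9, differed by -0.34 ± 0.08 (adjusted p = 0.0509). Markers of skeletal and cardiac muscle were mostly dim, with Acta1, Ckm, Myh3, Myl1, Myod1 and Myog not kept by the filter. Of the other 2, the troponin gene Tnnt3 rose by 0.77 ± 0.12 (adjusted p = 0.0092) and Actc1 differed by -0.29 ± 0.11.

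Markers of ureter and urothelium, where smooth muscle also lies, were measured for 6 of 7 genes, and 0 passed in limma, nor did any at an unadjusted p under 0.05. Their mean per array ranged from -0.54 to 0.01 in WT and from -0.46 to 0.04 in KO, with WT4 the lowest WT array in 5 of 6. Their part in the contractile values was not tested.

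Of the 9 elastic fibre and crosslinking genes, 8 had a difference above 0 with a median of 0.20, and Mfap5 alone passed. Elastin, Eln, was the exception at -0.03 ± 0.08, and Mfap4 differed by 0.07 ± 0.10. The fibulin gene Fbln1 had -0.37, -0.08, -0.10 and -0.05 in WT against 0.20, 0.29, 0.27 and 0.15 in KO. All KO arrays lay above all WT arrays, WT1 being far below the other WT arrays. The difference was 0.38 ± 0.09 (limma adjusted p = 0.0588; 0.0417 with the replicate block), and a second Fbln1 probe gave 0.12.

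Fbln5 had -0.33, 0.03, -0.10 and -0.39 in WT against -0.02, 0.26, 0.41 and 0.16 in KO, a difference of 0.40 ± 0.12 (limma adjusted p = 0.115; 0.0353 with the block). The overlap came from KO1 and WT2. Fbln2 differed by 0.21 ± 0.11. The lysyl oxidase genes differed by 0.20 ± 0.11 (Lox), 0.11 ± 0.09 (Loxl1) and 0.16 ± 0.11 (Loxl2), while other probes gave 0.11 for Lox, -0.12 for Loxl1 and -0.04 and -0.00 for Loxl2. The direction of Loxl1 and Loxl2 thus depended on the probe.

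**Figure D4:**
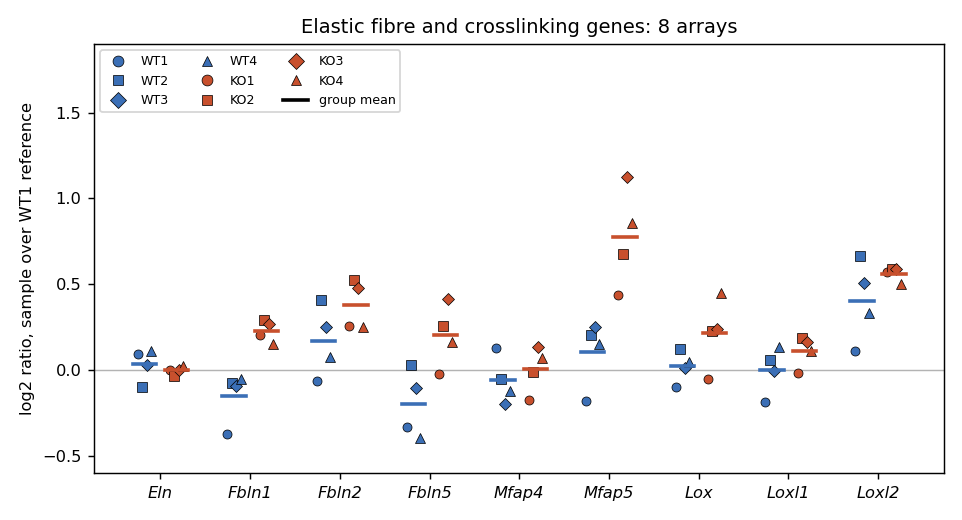
Log2 ratio over the WT1 reference (y axis) for 9 elastic fibre and crosslinking genes on each array, WT in blue and KO in red, a marker shape per replicate number and bars at the group means. Mfap5 and Fbln1 have KO points above all WT points, and the points of Eln overlap around 0.

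Other microfibril and elastic fibre genes were measured for 12 of 13, and 0 passed in limma, with a median of 0.15. With an unadjusted p under 0.05, 2 were higher and 0 lower, against 11.1% and 3.38% of all genes. The lowest p values were those of Ltbp1, which tethers latent TGF-beta to microfibrils (0.25 ± 0.08, adjusted p = 0.158), and Emilin2 (0.31 ± 0.14, adjusted p = 0.317). Among TGF-beta ligands, receptors, mediators and targets, 0 of 14 measured of 15 passed in limma. Here 3 were higher and 0 lower at an unadjusted p under 0.05, against 11.1% and 3.38% of all genes. All 14 differences were above 0, against 59.3% of all genes, with a median of 0.10. The largest were those of the receptor Tgfbr2 (0.31 ± 0.09, adjusted p = 0.117) and the ligand Tgfb3 (0.29 ± 0.09, adjusted p = 0.153).

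Of the 9 other matrix and surface genes, Smoc2 and Thy1 passed, 7 differed upward and the median was 0.16. Fibronectin, Fn1, had -0.41, 0.23, -0.13 and -0.56 in WT against -0.20, 0.32, 1.21 and 0.11 in KO. KO3 stood alone above the other arrays, and the difference of 0.58 ± 0.26 did not pass (limma adjusted p = 0.320). Mgp, an inhibitor of calcification made by mural cells, had 0.08, -0.31, -0.23 and -0.39 in WT against -0.81, -0.65, -0.33 and -0.76 in KO. All KO arrays but KO3 lay below every WT array. Its difference was -0.42 ± 0.13 (limma adjusted p = 0.126), and -0.53 without KO3 (adjusted p = 0.0482).

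Periostin, Postn, and the protease inhibitor gene Timp3 had groups that did not overlap, at smaller differences of 0.14 ± 0.08 and 0.19 ± 0.08 (limma adjusted p = 0.483 and 0.299). Tgfbi, a TGF-beta-induced matrix gene, differed by 0.14 ± 0.10 and Ecm1 by 0.16 ± 0.12. Tenascin C, Tnc, differed by -0.01 ± 0.08, and its probe was above background on 5 arrays.

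Paralogs and Wnt antagonists were set side by side in 11 pairs, chosen after their values were seen, so their differences are a description without a test. The shift of Meis1 exceeded that of Meis2 by 0.37, that of Mfap5 exceeded Mfap4 by 0.60, and that of Dkk3 exceeded Sfrp1 by 0.60 and Wif1 by 0.78. The shift of Fbln1 exceeded that of Fbln2 by 0.17, and that of Lox exceeded Loxl2 by 0.04. In other relatives of the signalling genes and their receptors, 11 measured of 12, Dkk2 fell by 0.80 ± 0.11 (limma adjusted p = 0.0043) and 0 rose. Of all genes, 0.544% were called lower and 1.61% higher. With an unadjusted p under 0.05, 1 of the 11 was higher and 4 were lower, against 11.1% and 3.38% of all genes. Dkk2 differed by -0.01 in the red channel alone, where the median of all genes was positive.

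A list of 21 further stromal genes was fixed by name, with earlier results of these data known. Of the 20 measured, 7 rose (35%, against 1.61% of all genes) and 0 fell, with a median of 0.41. Those 7 were Cldn11, a claudin (0.72 ± 0.09, SE; limma adjusted p = 0.00321), Fat4, a large cadherin through which stroma signals to nephron progenitors (0.53 ± 0.12, adjusted p = 0.0386), Zeb2, a mesenchymal zinc finger factor (0.57 ± 0.10, adjusted p = 0.0124), Pdgfra (0.73), Lum (0.70), Dcn (0.53) and the collagen gene Col1a1 (0.54). All 20 differences were above 0, against 59.3% of all genes. The groups did not overlap in 14 (70%, against 9.26% of all genes). Array means over the 20 genes ran from -0.23 to -0.02 in WT and from 0.27 to 0.36 in KO. Without WT1 and KO1, 5 of the 20 rose, and without KO4 or with the scanner software's ratios 3 did. With median centring, the red channel alone or sex as a term 0 did. Col1a1 missed the threshold without WT1, WT3, WT4, KO1, KO3 or KO4, and Fat4 without WT1, WT2, WT3, KO2, KO3 or KO4.

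Markers of other cells were read beside these values. Of 7 measured macrophage markers of 8, Mrc1, Cx3cr1 and Csf1r rose (42.9%, against 1.61% of all genes), while Cd14 differed by -0.01. The mean per array of the 7 ranged from -0.22 to 0.01 in WT and from 0.16 to 0.27 in KO. Of 8 endothelial markers and 6 podocyte markers 0 passed, with endothelial means from -0.18 to -0.02 in WT and from -0.17 to 0.14 in KO. The marker Esam, at -2.62 on WT2, -2.36 on KO2 and 0.82 on KO4, weighed heavily on these means. They are therefore a poor measure of the endothelial markers as a set. At an unadjusted p under 0.05, 1 endothelial marker and 0 podocyte markers were higher, against 11.1% of all genes. Of 3 measured mesothelial markers Krt19, also an epithelial keratin, rose by 0.54, and Msln differed by -0.05. Of 6 tubule markers 0 passed, 5 differences were above 0 and the median was 0.18, against 0.16 over the 37 stromal and mural genes. Among them Umod (0.75 ± 0.20, limma adjusted p = 0.0886) and Cdh16 (0.36 ± 0.10, adjusted p = 0.0745) had groups that did not overlap. Tubule means per array ranged from -0.58 to -0.07 in WT and from -0.26 to 0.21 in KO. The part of macrophages and of tubule cells in the stromal differences was not tested.

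**Figure D5:**
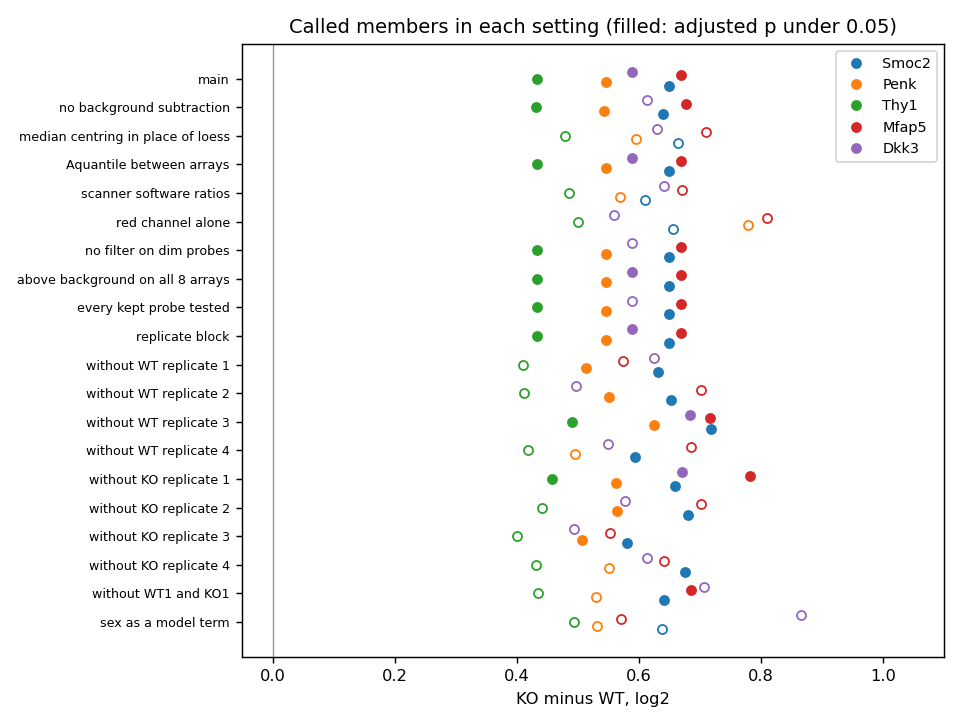
Difference between KO and WT (log2, x axis) of Smoc2, Penk, Thy1, Mfap5 and Dkk3 in each way of processing the arrays (y axis), including each array left out, with filled points for an adjusted p under 0.05. All points lie to the right of 0, and filled points are absent with median centring, the scanner software's ratios, the red channel alone and sex as a term.

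The 5 genes that rose kept their direction in each setting drawn in that plot. In the red channel alone the median of all genes was positive as well. With sex as a term, which sets the KO arrays against WT2 alone, they differed by 0.64 (Smoc2), 0.53 (Penk), 0.49 (Thy1), 0.57 (Mfap5) and 0.86 (Dkk3), with limma adjusted p from 0.151 to 0.37.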

How the data were processed

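Kidney pairs of 8 embryos, 4 per group by the labels, were measured on 2-colour Agilent arrays of 1 slide. The submitters' processing notes name Agilent Feature Extraction 10.7.3.1 as the scanner software. The intensity columns used are medians over the pixels of each spot, red and green, and of the surrounding background, on a linear scale and not normalized, per the file headers. The software's own ratio, the log10 of red over green after its background and dye correction, is also deposited, per the file headers. Flags of 0 or 1 in other deposited columns mark spots that are above background, saturated or outliers. The deposited table of the whole series holds the same log10 ratios (within 0.001 for at least 99.9% of its 59305 rows on each array, column medians 0). The labels put each sample in Cy5, with no dye swap, and the direction follows from them.

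In R 4.3.3, limma 3.58.1 (with version 1.17.8 of data.table) corrected the signals by normexp, offset 50, and applied loess to each array. Outlier readings (1765) were left out and 0 spots were saturated. Probes were kept if well above background in red on at least 4 of 8 arrays, named through RefSeq accessions (27509 of 55681 probes), and the brightest kept probe stood for its gene. The design had named spot signals without saying which, and the deposited medians were used.

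Differences were tested with lmFit and eBayes over 13981 genes, with Benjamini-Hochberg adjustment at 0.05, which measures only the spread between these 8 samples. The method was tested on simulated data. Deviations of same-numbered samples from their group means had correlations of 0.137, 0.373, 0.257 and 0.304, all over 0.1. The highest with another number were 0.0937, 0.309, -0.0614 and 0.369, the last being above its same-numbered value. The replicate number, which also equals the slide column, was therefore tried as a block, while the main comparison used no block. Having 4 arrays per group limits the precision.

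The members, the gene lists and the tests were chosen with earlier results of these data known. All 38 genes are named. All 8 values are given for genes that passed and, in groups without a pass, for the smallest p and the brightest probe. Genes given in full beyond these (Foxd1, Meis2, Fbln1, Fbln5, Fn1, Mgp) were chosen after their values were seen. Of the other pathway lists, genes that passed, or the 2 with the smallest p, are named. Abcc9 is named beyond this rule and was chosen after its values were seen. Of the cell marker lists, genes that passed are named, and some chosen after their values were seen. Adrenal markers (2 of 6 measured) and nephron progenitor markers (6) were also fixed as lists, and Cited1 alone passed in them.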

Additional observations from a re-analysis of the deposited data

Results flagged for a closer look

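In 5 of the 74 groups of 4 arrays examined, 1 array lay far from the other arrays of its group and passed Dixon's test at its critical value for 4. Chance flags about 1 in 20 such groups. For Meis1 it was KO3, at a log2 ratio of 0.46 (gap over range 0.876). For Acta2 it was WT4, at -0.50 (0.898), and for Myh11 WT2, at 0.61 (0.871). For Fbln1 it was WT1, at -0.37 (0.865), and for Thy1 WT3, at 0.24 (0.892). The arrays differed from gene to gene.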

How the results depend on the processing

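The count of genes that rose, 5 in the main comparison, was 0 with median centring in place of loess, with the scanner software's ratios, with the red channel alone and with sex as a term. In these settings limma gave 0, 10, 1 and 6 higher at an unadjusted p under 0.05, against 11, and 178, 1951, 103 and 1662 of all genes, against 2030. It was 8 with the replicate block, which changed no other call among these genes, 2 without WT1 and KO1, and 1 to 5 with an array left out, while the count of genes that fell was 0 to 1. The cause was not tested. The count was 4 or 5 without background subtraction, without or with a stricter filter on dim probes, with every probe of a gene tested, or with Aquantile, which leaves ratios unchanged by construction.

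Directions changed mostly for small differences, with Kcnj8, Gas1 and Wif1 as larger ones in the red channel alone. Tnc turned to 0.000319 without background subtraction, 0.0251 with median centring, 0.0301 without the filter and 0.00396 without WT1 and KO1. Sfrp1 turned to 0.012 with median centring and 0.0314 without WT1 and KO1. Tgfb1 was -0.00706 and Eln 0.0538 in the software's ratios, and Tgfb1 was -0.0253 without WT1 and KO1. The red channel alone gave 0.455 for Meis2, 0.301 for Sfrp1, 0.43 for Wif1, 0.213 for Gas1, -0.148 for Des, 0.318 for Cspg4, 0.175 for Rgs5, -0.0489 for Mfap4, 0.22 for Tnc and 0.0319 for Kcnj8. There the median of all genes was itself positive, as given above with Wif1 and Gas1. The median of a gene's probes was -0.0389 for Mcam, -0.00463 for Loxl1 and -0.00219 for Loxl2. With sex as a term Tgfb1 was -0.137, Myh11 -0.344, Mcam -0.0529, Eln 0.101, Fbln2 -0.0339, Loxl2 -0.102 and Ecm1 -0.0415. Of the pairs, Lox minus Loxl1 was -0.0953, Lox minus Loxl2 -0.0399, Loxl1 minus Loxl2 0.0554 and Sfrp1 minus Wif1 -0.129 in the red channel alone, and Loxl1 minus Loxl2 was 0.0322 without WT1 and KO1. With 1 array left out, Tgfb1 ranged from -0.0648 to 0.0776, Tnc from -0.032 to 0.0284, Meis2 from -0.109 to 0.0538, Sfrp1 from -0.087 to 0.0602, Cspg4 from -0.277 to 0.00852, Acta2 from -0.0292 to 0.23 and Myh11 from -0.00994 to 0.335. Tnc and Ntn4 were near background, which limits their values.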
